A study of Mus musculus with 6 samples.

Results

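The genes described here are those of the mouse major histocompatibility complex (MHC) and of antigen presentation: every gene of the deposited count table whose mouse symbol starts with H2-, together with Cd74, Ciita, B2m, Tap1, Tap2, Tapbp, Nlrc5, Psmb8, Psmb9, Psmb10, Cd80, Cd86 and Cd1d1. They number 58 of the 52636 genes in the table, 45 with an H2- symbol and 13 without, and 50 of them lie on chromosome 17. They were measured in innate lymphoid cells (ILCs) of the mouse lung by RNA sequencing, in 3 KLRG1-positive and 3 KLRG1-negative libraries. KLRG1 is an inhibitory receptor that activated group 2 ILCs (ILC2s) can carry.

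All cells came from C57BL/6 mice wild type apart from the IL-4-4get allele, which reports IL-4 transcription as GFP. Every mouse had received 500 ng of recombinant IL-33, a cytokine that activates ILC2s, by intraperitoneal injection for 4 days and was euthanized on day 5, so that no library came from an animal without IL-33. The KLRG1-positive libraries are sorted lung cells negative for lineage markers, positive for CD90 and positive for KLRG1, a gate that the sorting protocol calls KLRG1high. The KLRG1-negative libraries are lineage-negative, CD90-positive lung cells without KLRG1. The labels number the libraries 1 to 3 in each group and do not say whether each came from a separate mouse, so the p-values measure the spread between these libraries, which may be technical.

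MHC class I molecules carry peptides from the inside of a cell to its surface, where CD8 T cells read them. The proteasome cuts the peptides, the transporter made of TAP1 and TAP2 brings them into the endoplasmic reticulum, and the light chain encoded by B2m holds the heavy chain in shape. MHC class II molecules carry peptides from endosomes to CD4 T cells, are guided by the invariant chain CD74, loaded with the help of H2-DM and switched on by the transactivator CIITA. Class II is best known from B cells, dendritic cells and macrophages, and lung ILC2s of the mouse are known to carry it too.

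The promoters of several of these genes are printed because class I and class II genes share letters close to their starts through which they can be switched together. A promoter window was found for 39 of the 58 genes in RefSeq (build GRCm38.p6). Each stretch is the 170 bases before the first annotated base of the gene, 5′ to 3′ on its own strand. Capitals mark 4 strings, searched on both strands: GATTGG (or CCAATC), AACNNATGATG, AGTTTCACTTCT and GGGGATTCCCC.
H2-Aa, chr17:34287824-34287993, minus strand: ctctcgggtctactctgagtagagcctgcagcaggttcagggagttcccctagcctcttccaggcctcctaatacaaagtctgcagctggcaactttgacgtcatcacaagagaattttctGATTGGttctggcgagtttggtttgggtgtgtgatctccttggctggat
H2-Eb1, chr17:34305697-34305866, plus strand: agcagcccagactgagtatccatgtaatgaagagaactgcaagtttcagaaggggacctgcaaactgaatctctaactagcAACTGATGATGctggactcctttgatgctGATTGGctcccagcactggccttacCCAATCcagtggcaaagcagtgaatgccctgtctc
H2-Ob, chr17:34238733-34238902, plus strand: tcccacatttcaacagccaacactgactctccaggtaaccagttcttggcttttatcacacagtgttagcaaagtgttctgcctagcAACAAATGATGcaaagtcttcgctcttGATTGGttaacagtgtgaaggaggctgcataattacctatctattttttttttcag
H2-K1, chr17:34000348-34000517, minus strand: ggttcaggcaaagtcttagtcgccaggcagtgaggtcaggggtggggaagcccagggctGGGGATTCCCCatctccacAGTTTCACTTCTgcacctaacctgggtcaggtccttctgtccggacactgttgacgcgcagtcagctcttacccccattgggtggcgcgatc
H2-Q6, chr17:35424680-35424849, plus strand: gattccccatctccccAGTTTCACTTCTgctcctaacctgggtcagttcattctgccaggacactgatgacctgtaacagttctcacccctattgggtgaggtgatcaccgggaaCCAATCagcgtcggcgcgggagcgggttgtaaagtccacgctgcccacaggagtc
H2-Q7, chr17:35438985-35439154, plus strand: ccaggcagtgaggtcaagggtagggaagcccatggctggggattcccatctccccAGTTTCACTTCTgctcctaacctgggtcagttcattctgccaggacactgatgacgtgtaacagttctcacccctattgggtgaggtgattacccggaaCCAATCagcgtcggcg
B2m, chr2:122147516-122147685, plus strand: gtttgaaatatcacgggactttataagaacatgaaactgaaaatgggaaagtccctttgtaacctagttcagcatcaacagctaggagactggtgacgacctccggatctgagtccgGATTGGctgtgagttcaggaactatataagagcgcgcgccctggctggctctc
The first 3 stretches belong to class II genes, the next 3 to class I genes, and the last to the class I light chain.

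GATTGG, the letters of the Y box, was found in the windows of 29 of the 39 genes that had one (not the same 39 as those tested for expression), against 16.1% of 32851 RefSeq windows (250 bases before to 50 after a start). It stands in 6 of the 7 printed stretches, the exception being H2-K1, whose matches lie outside the printed stretch. Matches counted at any position of the window and on either strand, from base -222 in Tap1 to base 8 in H2-K1. The 29 genes include H2-Ke6 and M region genes without a count. Whether a match is a working Y box was not tested. AACNNATGATG, the letters that H2-Eb1 and H2-Ob share in the X box, lay upstream of GATTGG in H2-Eb1, H2-Ob, H2-DMb1 and H2-DMb2, and was found in 0.137% of all windows. AGTTTCACTTCT, the letters of an interferon response element, was found in H2-K1, H2-D1, H2-Q4, H2-Q6, H2-Q7 and H2-Q10, and in 0.0335% of all windows. GGGGATTCCCC, the letters of a site for NF-kB, was found in H2-K1, H2-D1 and H2-Q6, and in 0.0304% of all windows. The strings were picked after the promoters had been read, and near-identical gene copies share their promoters, so the matches are a description.

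The libraries held between 17323004 and 23946073 reads assigned to genes. Alignments of reads that mapped to more than 1 place, 26.3% to 32.3% of a library's alignments (such a read can have several), were not counted, so genes with close copies are understated. Klrg1 checked the sort: it had 1485, 1786 and 1327 CPM (counts per 1000000 of the library size after TMM scaling, a correction for composition) in the KLRG1-positive libraries, against 13.1, 193 and 73.2 CPM in the KLRG1-negative libraries. Thy1, the gene of CD90, had 16.3 to 34.9 CPM in KLRG1-positive libraries, against 25.9 to 53.1 CPM in KLRG1-negative libraries. The summed CPM of 10 ILC2 genes, Gata3 and Il1rl1 among them, was 6127 to 7714 in KLRG1-positive and 1561 to 3895 in KLRG1-negative libraries. Marker genes of several other cell types were higher in every KLRG1-negative library than in any KLRG1-positive library when summed. The sums for 10 T cell, 10 B cell and 6 fibroblast genes were 1234 to 1564, 133 to 381 and 4.66 to 26.8 CPM in KLRG1-positive libraries, against 1938 to 6289, 672 to 4687 and 3849 to 10773 CPM in KLRG1-negative libraries. Trbc1, Trbc2 and Cd3g made up most of the T cell sum in each KLRG1-positive library. These genes averaged 353, 668 and 237 CPM in KLRG1-positive libraries, against 405, 953 and 456 CPM in KLRG1-negative libraries, with overlap. Cd3e and Cd3d of the same list averaged 20.1 and 9.67 CPM in KLRG1-positive libraries, against 395 and 275 CPM in KLRG1-negative libraries, without overlap. Genes of ILC1 and NK cells (9) and of ILC3 (7) summed to 122 to 496 and 16.1 to 27.8 CPM in KLRG1-positive libraries, against 588 to 1681 and 60.3 to 176 CPM in KLRG1-negative libraries. KLRG1-negative library 3 stood apart by its B cell genes. Several results that rest on it are given with and without it, but not all. A bulk measurement cannot tell fewer cells of a type from less RNA per cell.

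Classical class I heavy chains were the most abundant of the 3 groups of MHC genes and were higher in every KLRG1-positive library than in any KLRG1-negative library, class II transcripts overlapped between the groups, and non-classical class I transcripts did too. Levels across genes are given as TPM (the share per length, scaled to 1000000 in each library), computed from the counts and the deposited gene lengths. The summed level of H2-K1 and H2-D1, the classical class I heavy chains of this strain, was 16837, 19606.5 and 16561 TPM in KLRG1-positive libraries, against 11822, 15088 and 10352 TPM in KLRG1-negative libraries. The group means, 17668 ± 1684 and 12421 ± 2424 TPM (SD, n = 3 each), differed by a log2 ratio of 0.51, which stayed between 0.39 and 0.67 when any 1 library was left out. The 29 non-classical class I genes of the Q, T and M regions summed to 4143, 4536 and 3731 TPM in KLRG1-positive libraries, against 4218, 3949 and 2854 TPM in KLRG1-negative libraries. Of the 58 genes described, 11 are annotated as pseudogenes. H2-Q5 and H2-T-ps are among them and gave 517 to 836 and 85.9 to 173 TPM of the non-classical sum in a library. The class II chains H2-Aa, H2-Ab1, H2-Eb1 and H2-Eb2 summed to 2439, 1423 and 2637 TPM in KLRG1-positive libraries, against 981, 1507 and 4622.5 TPM in KLRG1-negative libraries. The highest and the lowest class II sums of all 6 libraries were both KLRG1-negative.

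**Figure D1:**
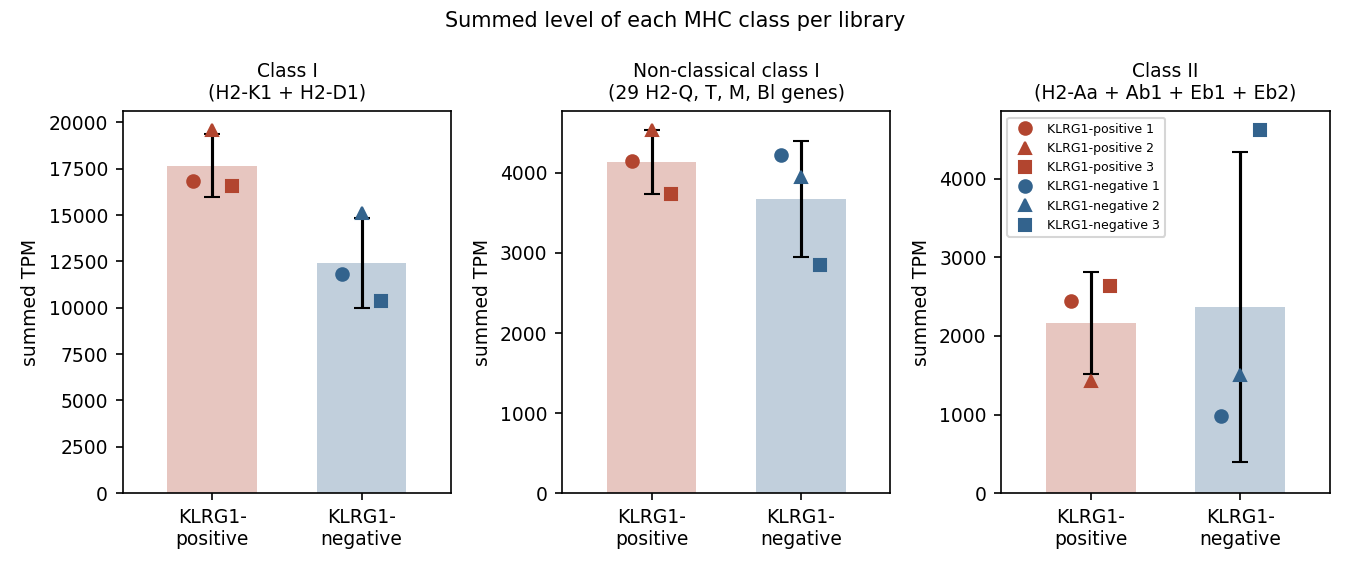
Summed level in TPM of 3 groups of MHC genes (vertical axis) in KLRG1-positive and KLRG1-negative libraries. Points are libraries, bars are means and whiskers are SDs (n = 3 each). Class I sums separate the groups, with 16561 TPM as the lowest KLRG1-positive and 15088 TPM as the highest KLRG1-negative value, and class II sums do not, with KLRG1-negative library 3 far above the rest at 4622.5 TPM.

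Class II over class I within a library was 0.145, 0.0726 and 0.159 in KLRG1-positive libraries, against 0.0830, 0.0999 and 0.447 in KLRG1-negative libraries. The log2 ratio of the group means was -0.74, and it turned to 0.46 without KLRG1-negative library 3. The non-classical sum over the classical class I sum was 0.246, 0.231 and 0.225 in KLRG1-positive libraries, below 0.357, 0.262 and 0.276 in KLRG1-negative libraries, so that the groups did not overlap. These sums and ratios were not tested.

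**Figure D2:**
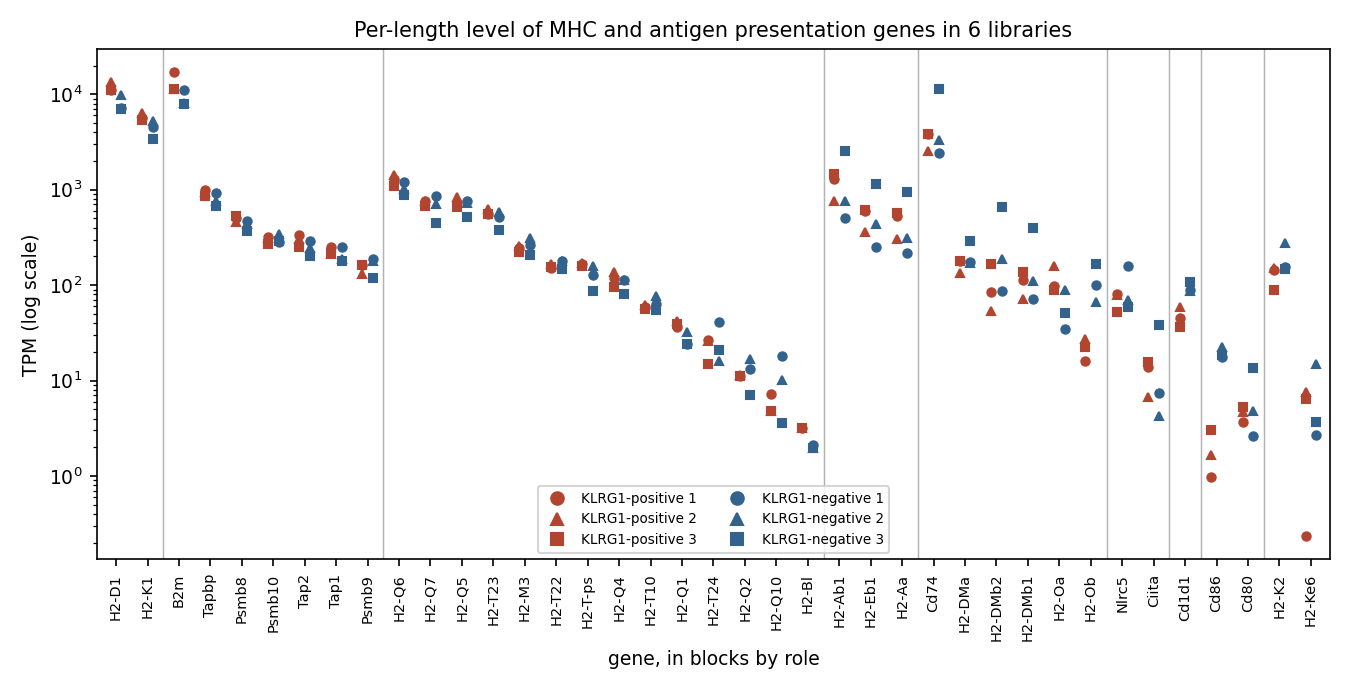
Level per length in TPM (log scale, vertical axis) of the 39 genes that passed the filter on low counts, in blocks by role, with each library as a point. H2-D1, B2m, H2-K1 and Cd74 are the most abundant, and Cd86 is the gene whose KLRG1-positive points lie farthest below its KLRG1-negative points.

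Of the 58 genes, 39 had enough counts to be tested and 19 did not. Cd86 was the 1 gene of the 39 that passed the test, as lower in KLRG1-positive libraries, and none passed as higher. Across the 15197 genes tested, 1.21% were called lower and 0.125% higher (edgeR's quasi-likelihood test, Benjamini-Hochberg adjusted p below 0.05), so 1 call in 39 is close to the background. The number with an unadjusted p below 0.05 was 1 of 39 for higher, which was H2-D1, and 3 of 39 for lower, which were Cd86, Cd1d1 and H2-Ob. Over all genes those shares were 4.19% and 11.5%. Klrg1, on which the cells were sorted, did not pass edgeR's test itself (log2 fold change 4.04, adjusted p = 0.0939). None of the 10 ILC2 genes passed it either. A gene that did not pass can therefore still differ between the groups. DESeq2 on the same counts called 3 of the 39, all lower (Cd86, Cd1d1 and H2-Ob), against 9.06% of all genes called lower and 2.28% higher, or 11.3% in all. With no filter beyond 1 count, edgeR called 2 of 51, Cd86 and H2-Ob, against 1.05% of all genes lower and 0.138% higher, or 1.19% in all. With the replicate number as a block, edgeR called none of the 39, against 0.349% of all genes, and DESeq2 called 6, with H2-DMb2 added as lower and H2-D1 and H2-Oa as higher, against 11.2% of all genes lower and 4.01% higher. The median log2 fold change, KLRG1-positive over KLRG1-negative, was -0.18 over the 39 and -0.05 over all genes tested, and 16 of the 39 had a positive one, against 46.5% of all genes.

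The groups did not overlap for 12 of the 39 tested genes, against 24.6% of all genes tested. H2-Bl, H2-D1, H2-K1, H2-Oa, H2-Q1 and H2-T-ps had every KLRG1-positive library above every KLRG1-negative one, 6 of 39 against 9.46% of all genes. Cd1d1, Cd86, H2-K2, H2-Ob, H2-T10 and H2-T22 had every KLRG1-positive library below, 6 of 39 against 15.2% of all genes.

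**Figure D3:**
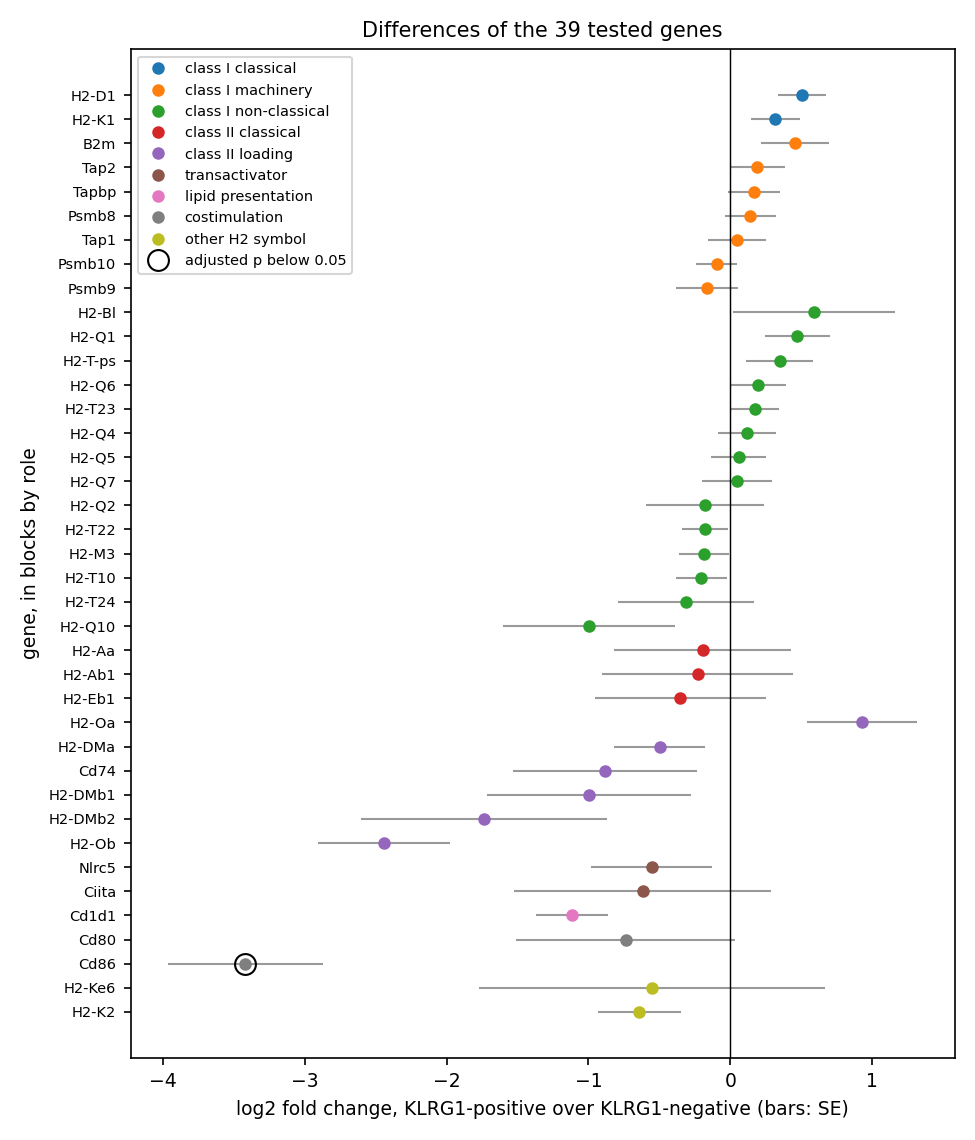
Log2 fold change, KLRG1-positive over KLRG1-negative (horizontal axis, bars are SEs), of the 39 tested genes in blocks by role. A ring marks the 1 gene with an adjusted p below 0.05, Cd86 at -3.42. The classical class I heavy chains H2-K1 and H2-D1 sit right of 0 with short bars, and the class II chains sit left of it with bars that cross it. Of the 14 non-classical class I genes, 8 sit right of 0 and 6 left.

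Among the class I heavy chains, H2-D1 (chr17:35262730-35267499, plus strand, build GRCm38) had 9055, 11239 and 10219 CPM in KLRG1-positive libraries, against 6747, 7959 and 6786 CPM in KLRG1-negative libraries. Every KLRG1-positive value was above every KLRG1-negative value. The log2 fold change was 0.51 ± 0.17 (SE), which did not pass edgeR's test (adjusted p = 0.211, 0.0289 to 0.63 over the alternatives). It passed in 1 alternative, DESeq2 with the replicate number as a block. H2-K1 (chr17:33996017-34000333, minus strand) had 4583, 5385 and 4927 CPM in KLRG1-positive libraries, against 4304, 4285 and 3360.4 CPM in KLRG1-negative libraries, a log2 fold change of 0.32 ± 0.17 (edgeR adjusted p = 0.471). Both genes kept a positive fold change in every alternative run. Per length, H2-D1 was 2.00 to 2.11 times H2-K1 in KLRG1-positive libraries and 1.59 to 2.04 times in KLRG1-negative libraries. Of 50-base words of their transcripts, 87.2% for H2-D1 and 90.4% for H2-K1 occur in no other gene, so both are counted from most of their length.

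B2m, which encodes the light chain of all class I molecules, had 4558, 3205 and 3445 CPM in KLRG1-positive libraries, against 3408, 2173 and 2594 CPM in KLRG1-negative libraries. The groups overlapped, and the log2 fold change of 0.46 ± 0.24 did not pass (edgeR adjusted p = 0.449). In each pair of libraries with the same number, B2m was higher in the KLRG1-positive one. The genes that carry the peptides overlapped as well. Tap1 and Tap2, the subunits of the peptide transporter, averaged 414 ± 26.8 and 371 ± 30.9 CPM in KLRG1-positive libraries, against 399.7 ± 89.7 and 325 ± 63.8 CPM in KLRG1-negative libraries (SD, n = 3 each). Tapbp, tapasin, which links class I to the transporter, averaged 1018 ± 25.1 CPM in KLRG1-positive libraries, against 905 ± 169.8 CPM in KLRG1-negative libraries. Fold changes of the 7 genes of the class I machinery ran from -0.16 for Psmb9 to 0.46 for B2m on the log2 scale, and their edgeR adjusted p ran from 0.449 to 0.958.

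Psmb8, Psmb9 and Psmb10 encode the catalytic subunits that turn the proteasome into the immunoproteasome. Psmb10 varied little, with 169, 176 and 163 CPM in KLRG1-positive libraries, against 175, 183 and 186 CPM in KLRG1-negative libraries. Psmb8 averaged 450.4 ± 54.2 CPM in KLRG1-positive libraries, against 408 ± 51.6 CPM in KLRG1-negative libraries. Psmb9 averaged 185 ± 26.1 CPM in KLRG1-positive libraries, against 206 ± 42.8 CPM in KLRG1-negative libraries. Psmb9 and Tap1 overlap at their starts on opposite strands, and the deposited counts leave out reads that fit both genes.

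Nlrc5, the transactivator of class I genes, had 214, 219 and 158 CPM in KLRG1-positive libraries, against 491, 188 and 189 CPM in KLRG1-negative libraries. KLRG1-negative library 1 alone was high. The log2 fold change of -0.55 ± 0.42 (edgeR adjusted p = 0.637) turned to 0.07 without that library.

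Of the 29 non-classical class I genes, 14 were tested, 9 had a few counts and 6 had none. No tested one passed (edgeR adjusted p from 0.400 to 0.968), with 8 fold changes above 0 and 6 below. H2-Q6, a chain of the Q region, was the most abundant of them per length, at a median of 1148 TPM over the 6 libraries. It had 835, 972 and 797 CPM in KLRG1-positive libraries, against 914, 666 and 690.0 CPM in KLRG1-negative libraries. H2-Q7, which encodes the antigen Qa-2, had 1009, 1071 and 1019 CPM in KLRG1-positive libraries, against 1335, 938 and 726 CPM in KLRG1-negative libraries. The KLRG1-negative values of H2-Q7 spanned those of the KLRG1-positive libraries on both sides. H2-T23 encodes Qa-1, the ligand of the inhibitory receptor CD94-NKG2A, and averaged 556 ± 44.3 CPM in KLRG1-positive libraries, against 494 ± 68.3 CPM in KLRG1-negative libraries (SD, n = 3 each). H2-M3, which presents peptides that begin with N-formylmethionine, averaged 114 ± 5.78 CPM in KLRG1-positive libraries, against 129.9 ± 16 CPM in KLRG1-negative libraries.

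H2-Q1 was the Q gene whose groups did not overlap, with 32.4, 39.5 and 39.3 CPM in KLRG1-positive libraries, against 24.9, 29 and 26.3 CPM in KLRG1-negative libraries (log2 fold change 0.47 ± 0.23, edgeR adjusted p = 0.400). H2-T22 and H2-T10, near copies of each other that some gamma delta T cells recognize, averaged 178 ± 15.6 and 66.9 ± 3.58 CPM in KLRG1-positive libraries, against 201 ± 18.1 and 77.0 ± 5.99 CPM in KLRG1-negative libraries. Of their 50-base words 46.5% and 49.6% are unique to the gene, so reads that could belong to either were lost and both values are uncertain. The same holds for H2-Q4, H2-Q5 and H2-Q6, at 63.6% to 65.0%. H2-Q10, a secreted chain made mainly by liver, was low, at 6.78 to 9.85 CPM in KLRG1-positive libraries, against 5.86 to 28.1 CPM in KLRG1-negative libraries. H2-T3, the thymus leukemia antigen, had 26 counts in all KLRG1-positive and 22 in all KLRG1-negative libraries and was not tested.

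The class II chains overlapped between the groups at every gene. H2-Ab1, the beta chain of I-A (chr17:34263209-34269418, plus strand), had 671, 407 and 845 CPM in KLRG1-positive libraries, against 299.5, 388 and 1568 CPM in KLRG1-negative libraries. H2-Aa, its alpha chain, had 314, 187 and 375 CPM in KLRG1-positive libraries, against 148, 182 and 671 CPM in KLRG1-negative libraries. H2-Eb1, the beta chain of I-E, had 220.0, 139 and 255 CPM in KLRG1-positive libraries, against 108, 163 and 513 CPM in KLRG1-negative libraries. In all 3 genes KLRG1-negative library 3 was the highest of the 6 libraries and KLRG1-negative library 1 the lowest. The log2 fold changes were -0.23 ± 0.67 for H2-Ab1, -0.19 ± 0.63 for H2-Aa and -0.35 ± 0.60 for H2-Eb1 (edgeR adjusted p from 0.872 to 0.939). Without KLRG1-negative library 3 they were 0.91, 0.83 and 0.61, with adjusted p of 0.349, 0.374 and 0.506. The class II sum over the 4 chains moved with them, from a log2 ratio of -0.13 in all libraries to 0.80 without that library and to 0.10 without KLRG1-positive library 2, the lowest of its group. Without that KLRG1-positive library the fold changes of H2-Ab1 and H2-Aa were 0.0248 and 0.0575. H2-Eb2 had 12 counts in KLRG1-positive and 62 in KLRG1-negative libraries and was not tested. H2-Ea-ps, the E alpha gene that C57BL/6 mice do not express, had 0 and 2 counts.

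Ciita, the transactivator of class II genes, had the same order of libraries as H2-Ab1 in the KLRG1-positive group and its highest value of all in KLRG1-negative library 3. It had 23.1, 11.5 and 29.4 CPM in KLRG1-positive libraries, against 14.2, 7.06 and 76.8 CPM in KLRG1-negative libraries. Its log2 fold change of -0.62 ± 0.91 (edgeR adjusted p = 0.841) turned to 1.02 without KLRG1-negative library 3. With the replicate number as a block the fold changes of Ciita, H2-Ab1 and H2-Aa also turned, to 0.02, 0.11 and 0.09.

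Cd74, the invariant chain, was the most abundant gene of the class II pathway. It had 1687, 1189 and 1898 CPM in KLRG1-positive libraries, against 1225, 1466 and 6133 CPM in KLRG1-negative libraries. Its log2 fold change of -0.89 ± 0.65 (edgeR adjusted p = 0.618) turned to 0.25 without KLRG1-negative library 3. H2-DMa, the alpha chain of the peptide editor H2-DM, averaged 88.7 ± 15.8 CPM in KLRG1-positive libraries, against 125 ± 50.1 CPM in KLRG1-negative libraries. H2-DMb2, 1 of its beta chains, had 45.4, 29.8 and 100.3 CPM in KLRG1-positive libraries, against 53.4, 99.7 and 431 CPM in KLRG1-negative libraries. Its log2 fold change was -1.73 ± 0.87 (edgeR adjusted p = 0.422, 0.0103 to 0.844 over the alternatives) and was -0.38 without KLRG1-negative library 3. H2-DMb1, the other beta chain, shares 22.7% of its 50-base words with H2-DMb2, so the split between them is uncertain. It had 52.3, 34.6 and 71.5 CPM in KLRG1-positive libraries, against 38.4, 51.5 and 226 CPM in KLRG1-negative libraries, with a log2 fold change of -0.99 that turned to 0.24 without KLRG1-negative library 3.

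H2-Oa and H2-Ob, the chains of the H2-DM inhibitor H2-O, had fold changes of opposite sign. H2-Ob (chr17:34238903-34245907, plus strand), the beta chain, had 15.9, 28.3 and 25.3 CPM in KLRG1-positive libraries, against 115, 65.8 and 197 CPM in KLRG1-negative libraries. No KLRG1-positive value reached a KLRG1-negative one, and the means, 23.2 ± 6.47 and 126 ± 66.5 CPM (SD, n = 3 each), made it 5.44-fold lower in KLRG1-positive libraries. The log2 fold change of -2.44 ± 0.47 missed edgeR's threshold (adjusted p = 0.0670, 2.4e-06 to 0.373 over the alternatives), and its direction held in each alternative. H2-Oa (chr17:34092340-34095234, plus strand), the alpha chain, had 39.8, 68.7 and 41.4 CPM in KLRG1-positive libraries, against 16.5, 36.7 and 25.5 CPM in KLRG1-negative libraries. Here every KLRG1-positive value was above every KLRG1-negative one, with a log2 fold change of 0.93 ± 0.39 that did not pass (edgeR adjusted p = 0.328, 0.0153 to 0.678 over the alternatives). Per length, H2-Oa was 6.02, 5.83 and 3.92 times H2-Ob in KLRG1-positive libraries, against 0.345, 1.34 and 0.310 times in KLRG1-negative libraries. This ratio was chosen after the values had been seen and was not tested. H2-Oa shares 15.5% of its 50-base words with the annotated gene BC051537, and H2-Ob shares none with any gene.

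**Figure D4:**
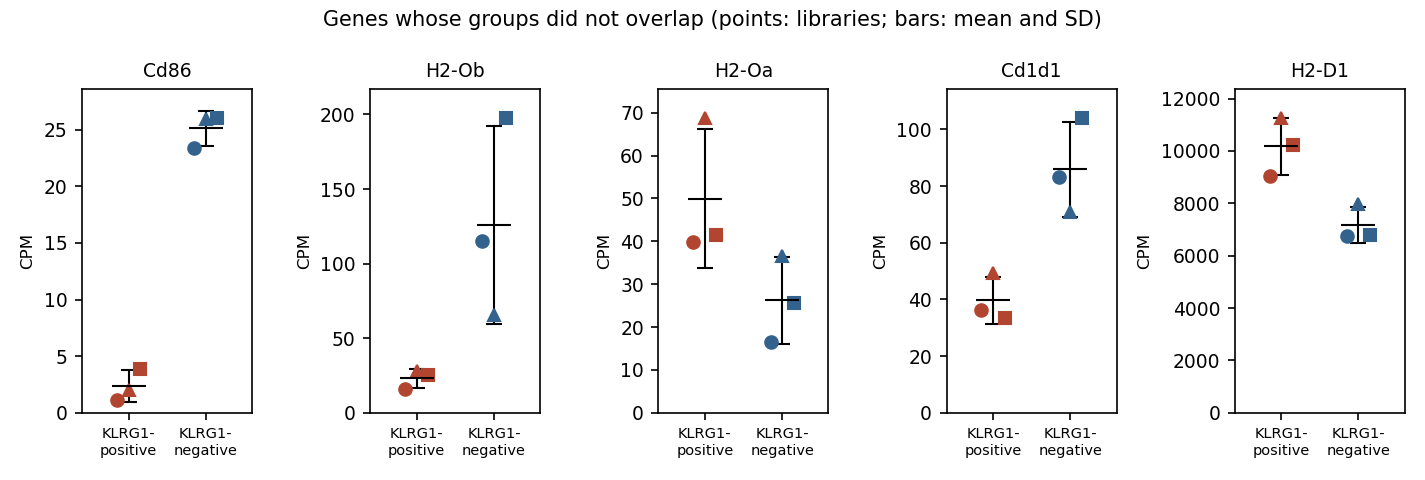
CPM (vertical axes from 0) of Cd86, H2-Ob, H2-Oa, Cd1d1 and H2-D1 in KLRG1-positive and KLRG1-negative libraries. Coloured points are libraries, and black bars are the mean and SD (n = 3 each). In each panel the groups do not overlap, with Cd86 at 1.13 to 3.91 CPM in KLRG1-positive libraries, against 23.4 to 26.0 CPM in KLRG1-negative libraries.

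Cd86, whose protein B7-2 gives T cells a second signal through CD28, was the gene that fell. It lies at chr16:36603869-36666081 on the minus strand. It had 1.13, 1.98 and 3.91 CPM in KLRG1-positive libraries, against 23.4, 26.0 and 26.0 CPM in KLRG1-negative libraries. The KLRG1-negative values lay close together and far above the KLRG1-positive ones. The means of 2.34 ± 1.42 and 25.1 ± 1.52 CPM (SD, n = 3 each) made it 10.8-fold lower in KLRG1-positive libraries. The log2 fold change was -3.42 ± 0.54 (edgeR adjusted p = 0.0484, 4.04e-09 to 0.346 over the alternatives). The call was lost with the replicate number as a block (adjusted p = 0.0795) and when any 1 library was left out (adjusted p from 0.0632 to 0.192), while the fold change stayed between -3.91 and -3.07. Cd80, which encodes the related ligand B7-1, had 1.97, 2.62 and 3.15 CPM in KLRG1-positive libraries, against 1.61, 2.56 and 8.75 CPM in KLRG1-negative libraries. The groups of Cd80 overlapped, and its log2 fold change of -0.74 ± 0.77 (edgeR adjusted p = 0.755) turned to 0.31 without KLRG1-negative library 3. The difference between the fold changes of Cd86 and Cd80 was not tested.

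Cd1d1 encodes the class I-like molecule that presents lipids to natural killer T cells (chr3:86995834-86999441, minus strand). It had 36.3, 49.2 and 33.4 CPM in KLRG1-positive libraries, against 83.2, 70.8 and 104 CPM in KLRG1-negative libraries. The groups did not overlap. The log2 fold change was -1.12 ± 0.26 and missed edgeR's threshold (adjusted p = 0.0922, 0.00324 to 0.583 over the alternatives). Cd1d1 shares 19.1% of its 50-base words with its copy Cd1d2, which was nearly silent, with 1 count in KLRG1-positive and 54 in KLRG1-negative libraries. H2-K2, a class I-type gene next to H2-K1 that is annotated as a pseudogene, averaged 44.2 ± 9.89 CPM in KLRG1-positive libraries, against 68.9 ± 18.7 CPM in KLRG1-negative libraries. H2-Ke6 encodes a steroid dehydrogenase and carries an H2 symbol for its place in the region. It had 0.113 to 3.85 CPM in KLRG1-positive libraries, against 1.5 to 7.25 CPM in KLRG1-negative libraries, and 29.5% of its 50-base words are its own.

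Markers of B cells, which carry class II, summed to less in every KLRG1-positive library than in any KLRG1-negative library, while H2-Ab1 and H2-Aa overlapped between the groups. All 10 B cell genes were tested and had negative log2 fold changes, 1 of them called (Blk). Cd79a, a chain of the B cell receptor, had 9.74, 13.2 and 50.7 CPM in KLRG1-positive libraries, against 91.4, 108 and 587 CPM in KLRG1-negative libraries. None of the 10 was at 0 in a whole group, and Fcer2a and Cr2 were at 0 in some libraries. KLRG1-negative library 3, the highest for Cd79a, was also the highest for H2-Ab1, Cd74, Ciita, H2-DMb2 and H2-Ob. Within the KLRG1-positive group, library 3 was the highest for Cd79a, H2-Ab1, Cd74 and Ciita, but not for H2-Ob. Other orders differed: KLRG1-positive library 2 had more Cd79a than library 1 but less H2-Ab1, Cd74, Ciita and H2-DMb2. KLRG1-negative library 2 also had more Cd79a than library 1, with more H2-Ab1, Cd74 and H2-DMb2 but less Ciita and H2-Ob. The part of B cells in the class II values was not tested. Per length, H2-Ab1 was 61.3, 27.5 and 14.8 times Cd79a in KLRG1-positive libraries, against 2.92, 3.19 and 2.38 times in KLRG1-negative libraries. For Cd74 the same ratio was 179, 93.2 and 38.7 in KLRG1-positive libraries, against 13.8, 14 and 10.8 in KLRG1-negative libraries. Both ratios kept the groups apart. Cd79a alone did so too, while H2-Ab1 and Cd74 overlapped, so the separation of these ratios came with Cd79a. It shows no difference in class II. For H2-Ob the ratio to Cd79a was 0.753, 0.990 and 0.231 in KLRG1-positive libraries, against 0.581, 0.281 and 0.155 in KLRG1-negative libraries, and the groups overlapped.

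**Figure D5:**
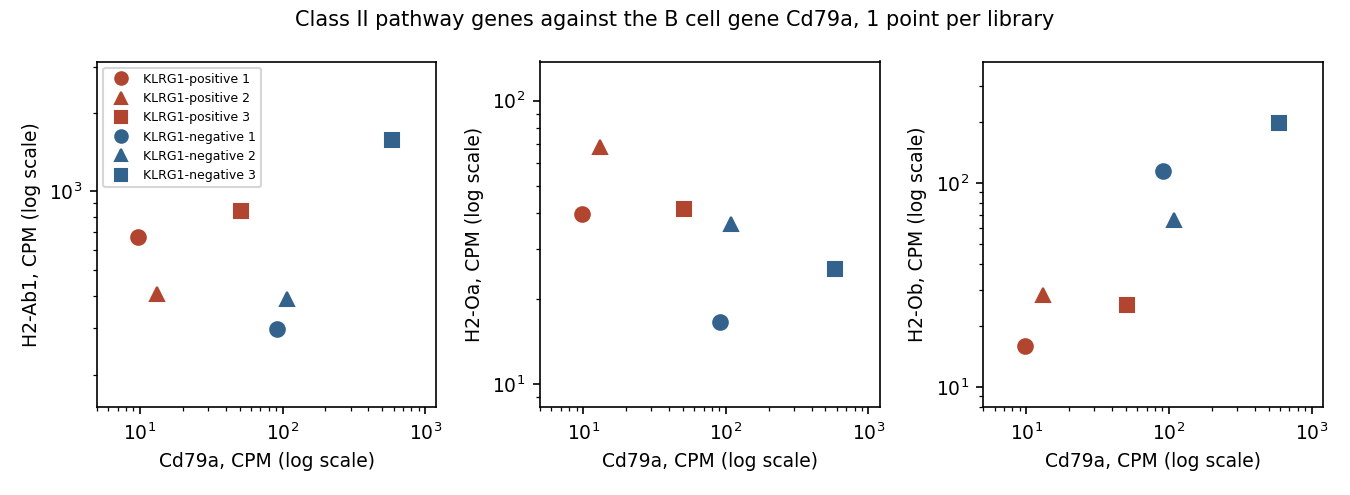
CPM of H2-Ab1, H2-Oa and H2-Ob (vertical axes, log scale) against CPM of the B cell gene Cd79a (horizontal axes, log scale), with each library as a point. Cd79a is 9.74 to 50.7 CPM in KLRG1-positive libraries, against 91.4 to 587 CPM in KLRG1-negative libraries, without overlap. H2-Ab1 is 407 to 845 CPM in KLRG1-positive libraries, against 299.5 to 1568 CPM in KLRG1-negative libraries, with overlap.

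Dendritic cell genes were low in both groups, summing to 29.8 to 61.4 CPM over 8 genes in KLRG1-positive and 22.8 to 43.3 CPM in KLRG1-negative libraries. Of these genes, 6 were tested, with 3 log2 fold changes below 0 and 3 above. Flt3, a receptor of dendritic cell precursors, was at 0 in KLRG1-positive libraries 1 and 2 and at 0.621 CPM in library 3, against 0.334 to 1.73 CPM in KLRG1-negative libraries. Zbtb46 of the same list had 1.91, 2.99 and 2.75 CPM in KLRG1-positive libraries, against 2.67, 18.3 and 6.01 CPM in KLRG1-negative libraries, with overlap. Xcr1, a chemokine receptor of cross-presenting dendritic cells, had 45.2, 31.8 and 21.3 CPM in KLRG1-positive libraries, against 11, 13.9 and 11.6 CPM in KLRG1-negative libraries, without overlap, and made up most of the KLRG1-positive sum (edgeR adjusted p = 0.112, DESeq2 adjusted p = 0.00466). Macrophage genes summed to 221 to 741 CPM over 11 genes in KLRG1-positive and 128 to 922 CPM in KLRG1-negative libraries, with Chil3 and Lyz2 as the largest parts in KLRG1-positive library 1 (418 and 215 CPM). Of the macrophage genes, 10 were tested, with 7 log2 fold changes below 0 and 3 above. Mrc1, the mannose receptor, was the only tested one without overlap, at 5.97, 6.46 and 5.55 CPM in KLRG1-positive libraries. In KLRG1-negative libraries Mrc1 had 17.8, 7.57 and 36.4 CPM (edgeR adjusted p = 0.221, DESeq2 adjusted p = 0.0449). Alveolar type 2 cells also carry class II, and their gene Sftpc had 329.8, 0.374 and 0.400 CPM in KLRG1-positive libraries, against 366, 2.33 and 1.15 CPM in KLRG1-negative libraries. The part of these cells, and of the T cells, fibroblasts, ILC1, NK cells and ILC3 whose summed genes were higher in KLRG1-negative libraries, in the values of Cd86, H2-Ob and Cd1d1 was not tested.

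Of 47 further genes of the same pathways, 46 were tested, 2 passed as lower in KLRG1-positive libraries and none as higher, against 1.21% and 0.125% of all genes tested. Fcgrt, which encodes the neonatal Fc receptor, a class I-like molecule that carries IgG, had 7.43, 5.23 and 2.49 CPM in KLRG1-positive libraries, against 81.1, 61.8 and 86.4 CPM in KLRG1-negative libraries. Its log2 fold change was -3.92 ± 0.47 (edgeR adjusted p = 0.0301), and with the replicate number as a block the adjusted p was 0.0682, and with 1 library left out it ranged from 0.0333 to 0.152. Ctsl, a cathepsin that can cut the invariant chain, had 19.6, 20.1 and 9.90 CPM in KLRG1-positive libraries, against 78.0, 175 and 211 CPM in KLRG1-negative libraries. Its log2 fold change was -3.23 ± 0.49 (edgeR adjusted p = 0.0454), the block gave 0.111, and with 1 library left out the adjusted p ranged from 0.0445 to 0.171. For both genes the groups did not overlap. The summed fibroblast genes were also lower in KLRG1-positive libraries, and the part of fibroblasts in the values of Fcgrt and Ctsl was not tested.

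None of the other lists had a member that passed the edgeR test. DESeq2 called 7 of the 46 genes, all lower, against 9.06% of all genes called lower: Cd40, Cd63, Ctsl, Ctss, Fcgrt, Irf8 and March1. In the class II transcription list, 5 of 7 fold changes were above 0. Its most abundant genes per length, Nfyb and Rfxap, which encode subunits of NF-Y and RFX, averaged 105 ± 30.6 and 33.5 ± 28.0 CPM in KLRG1-positive libraries, against 69.1 ± 20.0 and 24.4 ± 26.7 CPM in KLRG1-negative libraries. In the class I loading list, 4 of 5 were above 0. Pdia3 and Calr, chaperones of the loading complex, averaged 1927 ± 359 and 533 ± 141 CPM in KLRG1-positive libraries, against 1234 ± 312 and 501 ± 174 CPM in KLRG1-negative libraries. In the interferon gamma axis, 8 of 9 were below 0. Ifngr1, a chain of the receptor, and Jak1, its kinase, averaged 503 ± 79.3 and 1268 ± 81.0 CPM in KLRG1-positive libraries, against 631 ± 160.2 and 1677 ± 639 CPM in KLRG1-negative libraries. Irf8, an interferon-responsive transcription factor that B cells and dendritic cells also use, had 28.4, 15.9 and 34.2 CPM in KLRG1-positive libraries, against 65.5, 39.1 and 117.6 CPM in KLRG1-negative libraries (log2 fold change -1.50, edgeR adjusted p = 0.206, DESeq2 adjusted p = 0.0385). In the list of further costimulatory ligands, 5 of 7 were above 0. Icosl, the ligand of ICOS, had 279, 309 and 182 CPM in KLRG1-positive libraries, against 32.9, 234 and 141 CPM in KLRG1-negative libraries. Cd274, which encodes PD-L1, had 51.3, 44.0 and 34.9 CPM in KLRG1-positive libraries, against 64.8, 53.8 and 92.2 CPM in KLRG1-negative libraries. Cd274 did not overlap between the groups, and Icosl did (edgeR adjusted p = 0.311 and 0.606). Cd40, the receptor through which T cell help reaches antigen-presenting cells, had 2.36, 1.44 and 2.04 CPM in KLRG1-positive libraries, against 8.96, 11.2 and 39 CPM in KLRG1-negative libraries. Its groups were apart, with a log2 fold change of -3.33 ± 0.71 (edgeR adjusted p = 0.0817, DESeq2 adjusted p = 5.72e-05). Among proteasome genes, 4 of 6 were above 0, and Psmb6 and Psme1 stood at 200.3 to 268 and 230.4 to 251 CPM in KLRG1-positive libraries, against 172 to 242 and 232 to 268 CPM in KLRG1-negative libraries.

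The 19 genes that were not tested hardly contributed reads. H2-Pb, H2-M1, H2-M9, H2-M10.4, H2-M10.5, H2-M10.5-ps1 and H2-M10.6 had no count in any library. With 3 counts as the limit that a count of 0 allows, these levels are below 0.0508 CPM over the KLRG1-positive and 0.0468 CPM over the KLRG1-negative libraries, counting error only. The other 12 had a few counts each, such as H2-M2 with 11 counts in KLRG1-positive and 37 in KLRG1-negative libraries. The M10 genes, known from vomeronasal neurons, had at most 5 counts in a group.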

How the data were processed

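Gene counts of 6 libraries of total RNA were analysed as deposited. Per the submitters' processing notes, reads were demultiplexed with bcl2fastq, aligned with STAR 2.4.1d to GRCm38 and counted per gene with featureCounts of Subread 1.5.2. Per the labels' protocols, cDNA was made with a SMARTer kit and fragmented with Nextera XT, a protocol that does not mark strand. Per the deposited counting summary, which lists alignments, multi-mapping alignments and those that overlap more than 1 gene (2.49% to 2.81%) were left out. The sources used here do not state the read length. Symbols came from GENCODE M21, which held 52403 of the 52636 identifiers, 95.2% of them with the same start and end.

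Low counts were filtered with filterByExpr, and edgeR 4.0.16 in R 4.3.3 fitted quasi-likelihood models with TMM factors to the whole table. CPM use the TMM-scaled library sizes, and TPM use the deposited gene lengths. Fold changes are log2, KLRG1-positive over KLRG1-negative, with SEs. Sums and ratios were not tested (an exact permutation test of 3 libraries against 3 cannot go below p = 0.1, and no other test was run on them). The code of the fit was checked on simulated counts that varied less between libraries than these and held no pairing. That check does not measure how well the fit finds differences in these libraries. Alternatives were DESeq2 1.42.0, other scalings and filters, single libraries left out, and the replicate number as a block. Deviations from the group means correlated between libraries with the same number by 0.38, 0.34 and 0.19. Correlations between libraries with different numbers were not compared with these. The number was therefore used as a block in alternatives only, and the main fit treats the libraries as unpaired. The labels do not say what the numbers mark. Uniqueness is the share of 50-base words of a gene's annotated transcripts found in no other gene.

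The genes described and the pathway and marker lists were chosen with earlier results of these data known. Every gene of the family may be named. A pathway list is represented by its genes past the threshold or, failing those, by its 2 most abundant per length. Of a marker list, the first 2 genes could be named. Blk, Fcer2a, Cr2, Trbc1, Trbc2, Cd3g, Cd1d2, Xcr1, Chil3, Mrc1, Cd40, Irf8, Cd63, Ctss and March1 were named after their values were seen.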

Additional observations from a re-analysis of the deposited data

How the results depend on the processing

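Over all genes, 203 were called in the edgeR fit of all libraries (19 higher, 184 lower). Without a filter beyond 1 count there were 319, with DESeq2 1723, and with single libraries or both libraries of a number left out 0 to 171. Of the genes described, 1 was called, against 2 without the filter, 3 with DESeq2 and 0 with any library left out. Of the 47 pathway genes, 2 were called, against 7 with DESeq2 and 0 to 1 with libraries left out. Leaving out both libraries of a number was chosen after seeing the data. The cause of these shifts was not tested, beyond the smaller number of libraries where some were left out.

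With the replicate number as a block, edgeR called 53 genes in all, 0 of the genes described and 0 pathway genes. DESeq2 with the same pairing called 2306, 6 and 12. The edgeR block ended the calls of Cd86, Ctsl and Fcgrt and changed no other call among these genes. It turned the fold changes of Ciita (0.0241), H2-Ab1 (0.11) and H2-Aa (0.0896), and DESeq2 with the block gave 0.0286, 0.11 and 0.0923.

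Of 624 alternative fold changes of the 39 tested genes, 565 kept their direction and side of the threshold, 10 lost a call, 8 gained one and 41 turned sign. None of the 41 was called, and 24 genes never turned. Psmb10 came to 0.00327 without the filter. With libraries left out, fold changes spanned 0 for Cd74 (-1.28 to 0.25), Cd80 (-1.12 to 0.31), Ciita (-1.02 to 1.02), H2-Aa (-0.59 to 0.83), H2-Ab1 (-0.63 to 0.91), H2-DMb1 (-1.38 to 0.24), H2-Eb1 (-0.76 to 0.61), H2-Ke6 (-1.07 to 0.55), H2-Q2 (-0.41 to 0.10), H2-Q5 (-0.0436 to 0.26), H2-Q7 (-0.13 to 0.34), H2-T24 (-0.63 to 0.21), Nlrc5 (-0.79 to 0.0721), Psmb10 (-0.11 to 0.0499) and Psmb9 (-0.32 to 0.0197). Scaling by DESeq2 factors left the median of all genes at -0.05, and library size alone put it at -0.08. The class I log2 ratio was 0.44 from CPM, and the class II ratio -0.24. Depth limits the genes under a few CPM, and multi-mapping limits the Q and T region genes.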

Other observations

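Within-library ratios per length compare genes of a shared pathway without scaling between libraries. They were chosen after the values had been seen and have no test. Cd74 over H2-Ab1, the invariant chain over the chain it guides, was 2.92, 3.39 and 2.61 in KLRG1-positive libraries, against 4.75, 4.38 and 4.54 in KLRG1-negative libraries. The groups were apart, and KLRG1-negative library 3, which stood apart by its class II level, was within the range of its group. H2-Ab1 over H2-Aa, the chains of I-A, was nearly constant, at 2.45, 2.49 and 2.58 in KLRG1-positive libraries and 2.31, 2.44 and 2.67 in KLRG1-negative libraries.

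Psmb10, an immunoproteasome subunit, over Psmb7, the subunit it replaces, was 4.82, 6.61 and 4.39 in KLRG1-positive libraries, against 9.31, 9.43 and 7.40 in KLRG1-negative libraries. The groups did not overlap. Psmb7 alone kept the groups apart too, at 53.4 to 74.6 CPM in KLRG1-positive libraries, against 37.6 to 50.3 CPM in KLRG1-negative libraries. Psmb10 alone overlapped between the groups, so the separation of this ratio came with Psmb7. It shows no difference in Psmb10. Psmb8 over Psmb5 was 2.61, 3.08 and 2.44 in KLRG1-positive libraries, against 3.84, 2.67 and 2.62 in KLRG1-negative libraries. Psmb9 over Psmb6 was 0.434, 0.404 and 0.402 in KLRG1-positive libraries, against 0.746, 0.522 and 0.347 in KLRG1-negative libraries. For these pairs the groups overlapped.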
